A study of Homo sapiens with 9 samples.

Results

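The genes described here encode 10 factors of cytosolic translation: EIF4A1, EIF4A2, EIF4G1, EIF4G2, EIF3A, EIF5, EEF1A1, EEF1G, EEF2 and EIF5A. They are 10 of the 19756 protein-coding genes of the GENCODE annotation on GRCh37, and were chosen by function with earlier results of these data known. EIF3A also entered because the peak at its start was among the strongest in cells without doxycycline, so that peak is given as a description. A peak was counted for a gene when it overlapped the gene's span, widened by 500 bp at each side, by at least 1 bp. In this way 23 of 5282 peaks were assigned with the control hairpin, 27 of 23688 upon shRNA5 and 15 of 32102 upon shRNA7. In the other arm 50 of 47014 peaks were assigned without doxycycline and 43 of 33892 with it.

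The peaks come from chromatin immunoprecipitation and sequencing (ChIP-seq) of RNA polymerase II (RNAPII) in HEK293, a human embryonic kidney line. In one arm the cells were infected with lentivirus carrying a control shRNA, which the study's methods describe as an empty vector, or shRNA5 or shRNA7 against the helicase gene RECQL5. In the other arm, HEK293 T-REx cells had been transfected with the pcDNA4/TO-RECQL5 plasmid, selected with Zeocin and kept at 0.0 or 1.0 ng/ml doxycycline, the drug that switches the plasmid's full-length RECQL5 on. Both T-REx groups therefore carried the plasmid, and whether the line was 1 clone is not given in the sources used here. Each group had 1 RNAPII library, so no test between groups was possible, and 4 libraries with non-specific IgG served as background of the peak calls.

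The peaks of the 5 lists held between 841902 and 6693864 tags (aligned reads), and library totals were not used here. Tags were compared only within an arm, and all intervals below are 95% intervals that cover counting error alone. A tag count in bulk chromatin cannot tell RNAPII on more cells from more RNAPII per cell. Of the markers of the line, VIM, KRT8 and KRT18 had a peak in 5 of 5 lists, INA in 2 and PAX2 in 1, while ALB, HBB, PTPRC and INS had none in any list. RECQL5 itself had no peak with the control hairpin or shRNA5 and 2 upon shRNA7, and hairpins act on RNA, so this gives no check of the knockdown. In the T-REx cells RECQL5 had 8 peaks without doxycycline, holding 1171 tags, and 8 with it, holding 1623, and reads of the plasmid's copy can align to the gene as well. The study's methods give larger rounded numbers of peaks for the hairpin groups, the control included, than the lists used here hold. In proportion, the gap was widest for the control list, against which gained peaks were counted. Presence, absence, gain and loss of a peak therefore refer to these lists alone.

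Translation begins when a cap-binding complex, in which the helicase eIF4A is held by the scaffold eIF4G, recruits the small ribosomal subunit together with eIF3. eIF5 then helps to release the initiator factors once the start codon is found. During elongation, eEF1A delivers aminoacyl-tRNA to the ribosome, the eEF1B complex recharges it, eEF2 moves the ribosome along and eIF5A, which carries the amino acid hypusine, eases stalled peptide bonds. The genes of these factors are among the most actively transcribed in growing cells, and several host small nucleolar RNAs (snoRNAs) in their introns.

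Promoter sequences are shown because the genes fell into groups by a motif upstream of the start. RefSeq promoters (table on GRCh38.p14) were at hand for 9 of the 10 genes. Each sequence used matched GRCh37 exactly at 1 place, with its start at the GENCODE transcription start site (TSS), and the GRCh37 position is given. The letters TATAA lay between 50 and 15 bases before the start in 4 of these 9, on the sense strand, against 4.35% of 34961 promoters in the table. On the opposite strand none of the 9 held it, against 2.17% of promoters, and 394 promoters held it on both strands. A run of pyrimidines that opened with C, known from messages of the translation machinery, was found near the start in 3 of the 9, all of them among the 4 with TATAA. Such a run, of at least 5 pyrimidines and beginning between 5 bases before and 10 bases into the transcript, was present in 25.9% of promoters, and 1.12% held both features. The lines below run 5′ to 3′ from 50 bases before the start to 15 bases into the transcript, with TATAA and the pyrimidine run in capitals. The first 4 hold TATAA, and EEF1G and EIF4G2 are shown for contrast, since neither feature was found in them.
EEF1A1 (chr6:74230741-74230805, minus strand): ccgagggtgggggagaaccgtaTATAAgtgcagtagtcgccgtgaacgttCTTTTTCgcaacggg
EEF2 (chr19:3985447-3985511, minus strand): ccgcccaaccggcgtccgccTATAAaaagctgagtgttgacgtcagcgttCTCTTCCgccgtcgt
EIF4A2 (chr3:186501316-186501380, plus strand): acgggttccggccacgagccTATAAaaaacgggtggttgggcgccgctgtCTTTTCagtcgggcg
EIF4A1 (chr17:7476093-7476157, plus strand): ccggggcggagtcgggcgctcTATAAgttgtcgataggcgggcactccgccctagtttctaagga
EEF1G (chr11:62341349-62341413, minus strand): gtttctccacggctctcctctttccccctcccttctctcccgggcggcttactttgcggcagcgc
EIF4G2 (chr11:10830459-10830523, minus strand): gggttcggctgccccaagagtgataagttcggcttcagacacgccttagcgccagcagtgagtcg

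The motif was set beside the density of tags in the peak at the start. The 4 genes with TATAA had 87.0 to 164 tags per kb of that peak in the control list, and the other 4 with a promoter in the table and a peak had 46.1 to 102. This density is averaged over the whole peak that touched the start, not the start alone. In the control list that peak was 9114 to 17557 bp long at the genes with TATAA and 1672 to 9926 bp at the others. Without doxycycline the groups did not overlap, at 106 to 161 tags per kb for 4 genes and 50.9 to 98.7 for 5, while in the other 4 lists they overlapped. Over all genes, the median density of the start peak was also higher where a RefSeq promoter held TATAA, at 69.1 against 51.7 tags per kb with the control hairpin, 66.7 against 56.4 with shRNA5 and 79.2 against 64.9 with shRNA7. It was 53.6 against 38.1 without doxycycline and 61.4 against 45.8 with it. A start peak was less frequent among genes with TATAA, however, by little with the control hairpin, at 16.3% against 17.7%. The shares were 26.8% against 46.4% upon shRNA5 and 30.4% against 54.9% upon shRNA7. They were 31.4% against 59.4% without doxycycline and 27.8% against 50.6% with it. These are descriptions of sequence and peaks, and the part of the motif in the density was not tested.

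RNAPII peaks were found at most of the 10 genes in every list. A peak was listed at 9 of the 10 in the control list, where 22.5% of all protein-coding genes had one, at 10 upon shRNA5 (52.6% of all) and at 9 upon shRNA7 (60.6%). All 10 had a peak without doxycycline (64.2% of all genes) and with it (53.6%). The exceptions were EIF5, with none in the control list, and EEF1G, with none upon shRNA7. Wherever a gene had a peak, one touched the 500 bp on either side of its TSS, so that 9, 10, 9, 10 and 10 genes had a peak there. The same held for 16.0%, 42.0% and 50.2% of all genes with the control hairpin, shRNA5 and shRNA7, and for 54.5% and 46.0% without and with doxycycline.

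RNAPII also covered the ends of these genes. Of the genes with a TSS peak, the end of the transcript lay under a peak in 8 of 9 in the control list, against 25.9% of all genes with a TSS peak. It did so in 9 of 10 upon shRNA5 (39.0% of all), 9 of 9 upon shRNA7 (49.8%), and 9 of 10 both without (18.5%) and with doxycycline (18.4%). Where 1 gene lacked such cover, it was EEF1G. At the others the peaks ran on past the end by a median of 2858 bp with the control hairpin, 3375 bp with shRNA5 and 4816 bp with shRNA7. Without and with doxycycline the medians were 1828 and 1782 bp. The shares were not matched for transcript length, which ran from 4836 bp at EIF5A to 47148 bp at EIF3A. The distances past the end were not set beside those of all genes, and some of these peaks also lay over neighbouring genes.

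**Figure D1:**
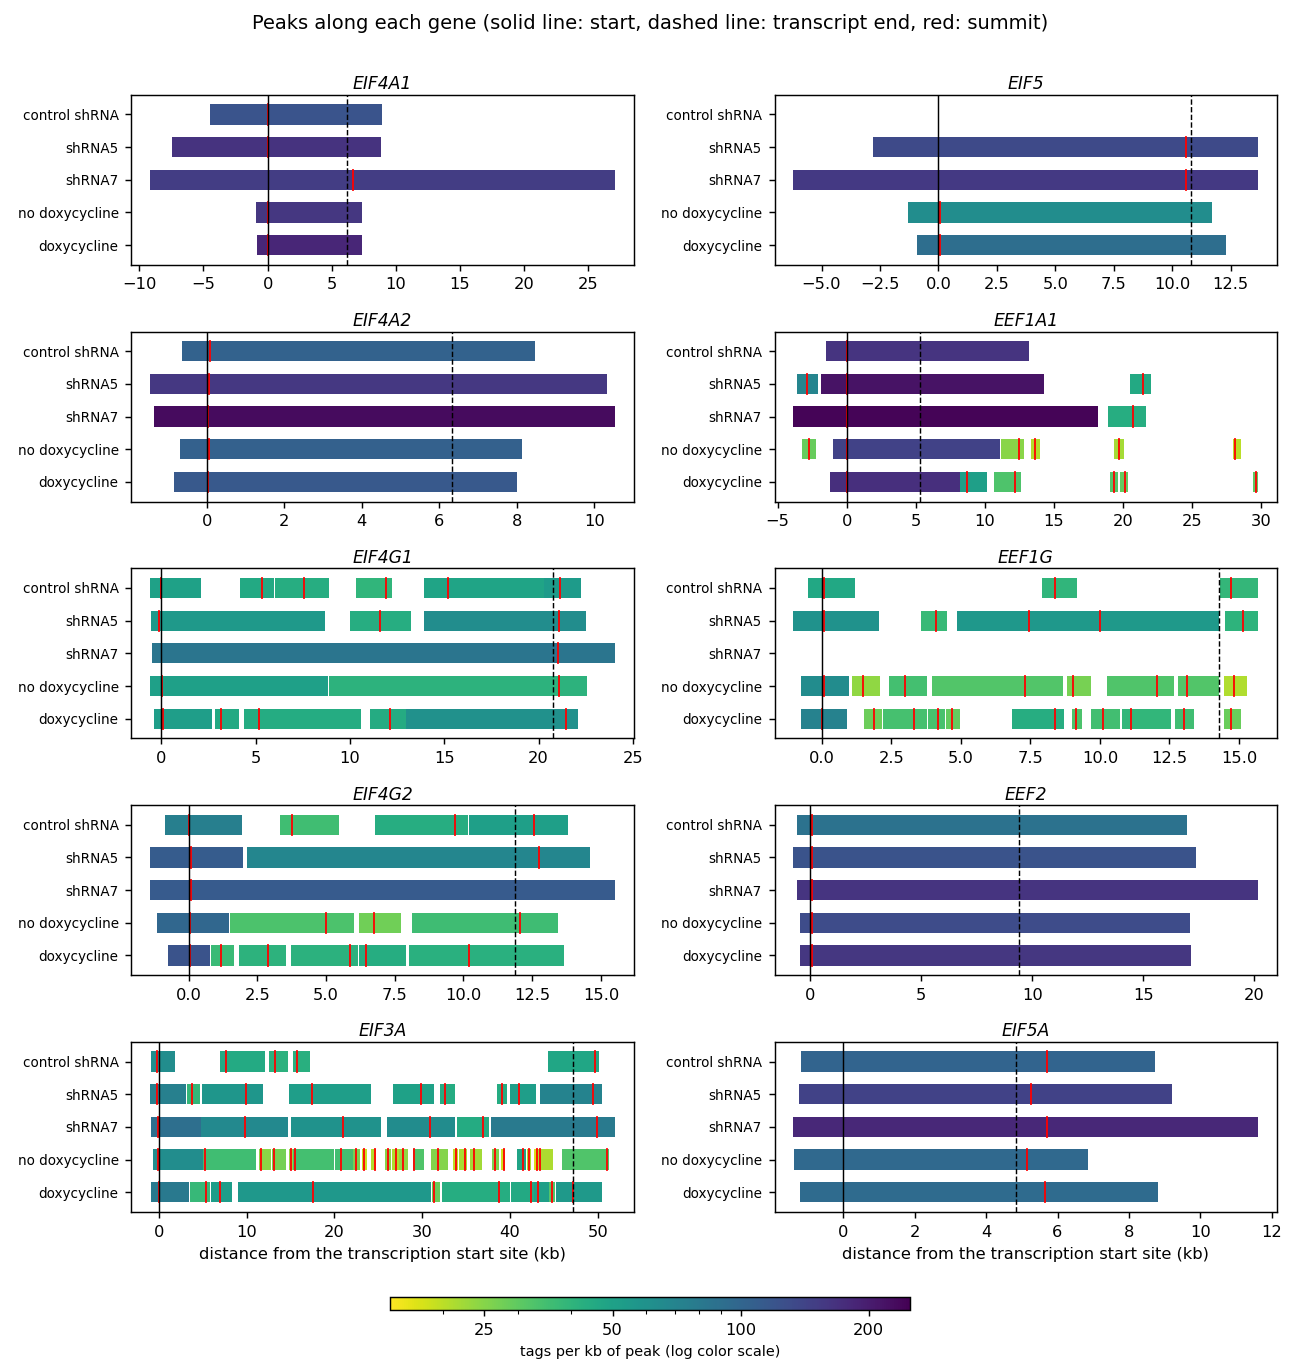
Peaks at each of the 10 genes in the 5 lists, drawn along the distance from the TSS in kb, with one row per list and the color giving tags per kb of peak on a log scale. Single long peaks covered EIF4A2, EEF2 and EIF5A in all 5 lists, whereas EIF3A was split into 5 to 25 peaks, and EIF5 (control shRNA) and EEF1G (shRNA7) each had an empty row.

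Among the initiation factors, the paralogs EIF4A1 and EIF4A2 encode the helicase that unwinds the leader of the messenger. EIF4A1 (chromosome 17, 7476142 to 7482324) lay under 1 peak in each list, with 1619 tags with the control hairpin, 2689 upon shRNA5 and 5475 upon shRNA7. Without and with doxycycline the peak held 1330 and 1520 tags. The peak was 13349 bp in the control list and 36248 bp upon shRNA7, where it covered the start sites of MPDU1 and SOX15 beside that of CD68, which lay under it in every list. In that list the summit moved from the start of EIF4A1, where it lay 33 bp into the transcript in the control list, to 486 bp past its end. EIF4A2 (chromosome 3, 186500994 to 186507686) also lay under 1 peak per list, with 947 tags with the control hairpin, 1878 upon shRNA5 and 2726 upon shRNA7. Its density was 104, 159 and 229 tags per kb of peak in the same order, within peaks of 9114 to 11904 bp. In the doxycycline arm EIF4A2 held 935 and 1014 tags, and its summit lay within 75 bp of the start in all 5 lists.

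The scaffold genes behaved differently from the helicase genes, with several peaks each. EIF4G1 (chromosome 3, 184032283 to 184053146), the scaffold of the cap-binding complex, had 6 peaks and 829 tags in the control list, 3 peaks and 1196 tags upon shRNA5, and 1 peak of 24576 bp with 2059 tags upon shRNA7. It held 1043 tags in 2 peaks without doxycycline and 1131 tags in 5 peaks with it. A summit lay past the end of EIF4G1 in every list, between 305 and 732 bp beyond it. Peaks of EIF4G1 reached the neighbour FAM131A in every list, and the peak upon shRNA7 took in the start of FAM131A. EIF4G2 (chromosome 11, 10818597 to 10830487), a relative of the scaffold that lacks the site for the cap-binding protein, held 620 tags in 4 control peaks, 1232 in 2 peaks upon shRNA5 and 1911 in 1 upon shRNA7. Within the hairpin arm the number of peaks was thus lower in the lists with more tags. Without and with doxycycline EIF4G2 held 644 and 702 tags in 4 and 6 peaks.

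EIF3A (chromosome 10, 120793182 to 120840329) encodes the largest subunit of eIF3 and has the longest span of the 10, at 47148 bp. In the control list it had 5 peaks with 849 tags over 29.3% of the span, and none between the fourth peak and the last, which covered the end. Upon shRNA5 there were 9 peaks with 2277 tags over 74.7%, and upon shRNA7 6 peaks with 3563 tags over 96.8%. Coverage of the span thus filled in from the control to the shRNA7 list. Without doxycycline EIF3A had 25 peaks with 1463 tags over 80.7% of the span, and with it 10 peaks with 2675 tags over 96.9%. The peak at its start in cells without doxycycline had a significance score (10 times the −log10 of the authors' p-value) of 3233, which it shared with 2 other peaks as the highest of that list. In that list 218 peaks shared a score of 3100. The EEF2 peak was one of them, with 2299 tags and a fold enrichment of 264. The EIF3A start peak held 362 tags at a fold enrichment of 99.4, so the rank by score was not a rank by tags or enrichment. With doxycycline the EIF3A score was 2243, rank 258 of 33892, and 137 peaks of that list shared 3100.

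The start peak of EIF3A was set beside the other peaks of the gene. The start peak held 171 tags with the control hairpin, 309 after shRNA5 and 521 after shRNA7, and the other peaks together 678, 1968 and 3042. The last of the other peaks also lay over the neighbour NANOS1 in every list. Upon shRNA7 and without doxycycline it took in the start of NANOS1. This last peak held 277, 504 and 1118 tags with the control hairpin, shRNA5 and shRNA7. Without and with doxycycline it held 174 and 288. RNAPII of EIF3A and NANOS1 cannot be told apart there. The fold at the start was 1.81 (interval 1.49 to 2.19) and 3.05 (2.56 to 3.64) for shRNA5 and shRNA7, and in the rest 2.90 (2.66 to 3.17) and 4.49 (4.13 to 4.88). With doxycycline the start peak held 345 tags against 362 without, a fold of 0.953 (0.820 to 1.11), whereas the other peaks held 2330 against 1101, a fold of 2.12 (1.97 to 2.28). These sums move with how much was called, since the regions were called separately in each list. The start peak spanned 2689, 4147 and 5740 bp with the control hairpin, shRNA5 and shRNA7, and the other peaks 15027, 35469 and 45616 bp. Per kb of peak, the start held 63.6, 74.5 and 90.8 tags and the rest 45.1, 55.5 and 66.7 in the same order, so that in density both parts moved by much the same factor. Without and with doxycycline the start peak spanned 5668 and 4322 bp at 63.9 and 79.8 tags per kb, and the other peaks 37153 and 45609 bp at 29.6 and 51.1. The density was thus higher with the drug in both parts. The start peak made up 24.7% of the tags at EIF3A without doxycycline and 12.9% with it. In the hairpin arm the share was 20.1% with the control hairpin, 13.6% upon shRNA5 and 14.6% upon shRNA7. Since the start peak without doxycycline was what brought EIF3A in, its own change is a description only.

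**Figure D2:**
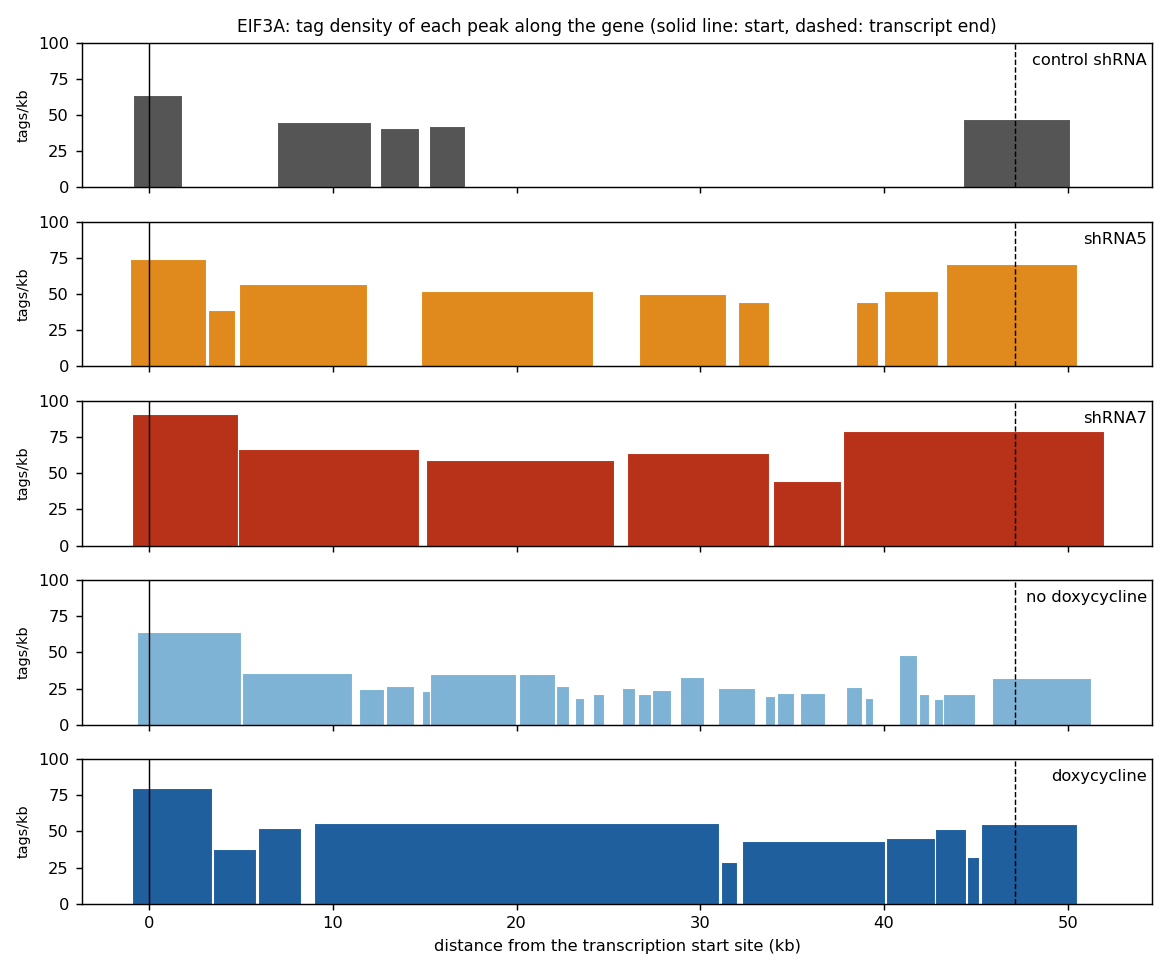
Tag density of each EIF3A peak (tags per kb, bar height) against the distance from the TSS in kb, with bar width giving the peak's length, for the 5 lists. With doxycycline 1 peak of 22016 bp took the place of many short ones in the gene body, and upon shRNA7 the peaks covered nearly the whole gene.

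EIF5 (chromosome 14, 103799881 to 103811362), which prompts eIF2 to hydrolyse GTP at the start codon, had no counterpart in the control list. The nearest control peaks were 1360287 bp before and 172085 bp after the gene. Upon shRNA5 a single peak of 16478 bp held 2185 tags, and upon shRNA7 one of 19880 bp held 3130 tags. Without and with doxycycline 1 peak held 827 and 1212 tags. The summit lay in the 3′ UTR upon shRNA5 and shRNA7, at −207 and −209 bp relative to the end of the transcript. In the doxycycline arm, which was not compared with the hairpin arm, it lay 84 and 77 bp into the transcript. Peaks newly listed over the control were common, at 30.2% of all genes upon shRNA5 and 39.0% upon shRNA7, and EIF5 was the 1 gene of the 10 in either case. Such gains depend on the control list, which in proportion fell furthest below the number of peaks in the study's methods. Read across both arms, for presence only, 441 genes had a score of at least 1000 in the other 4 lists, and 5 of them (1.13%) had no peak in the control list used here. Besides EIF5 these were ENSG00000291313, which shares its peak, SUV39H2, QRICH2 and POLGARF, all named after their values were seen. A gene without a listed peak is not shown to lack RNAPII, and no fold can be given for it.

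Among the elongation factors, EEF1A1 and EEF2 each had a long, dense peak around the start. EEF2 had no other, while EEF1A1 had 1, 3 and 2 peaks with the control hairpin, shRNA5 and shRNA7, and 6 both without and with doxycycline. EEF1A1 (chromosome 6, 74199031 to 74235310), whose product carries aminoacyl-tRNA, held 2416 tags with the control hairpin, 3693 upon shRNA5 and 5514 upon shRNA7. In the doxycycline arm it held 1852 without the drug and 1824 with it. It had the highest density of the 10 in the control and shRNA5 lists, at 164 and 193 tags per kb, while upon shRNA7 EIF4A2 (229) stood above EEF1A1 (222). Of the 36280 bp span 40.6% lay under peaks in the control list, but the reference transcript takes up only 5283 bp, and 1 peak covered it whole. EEF1A1 has 48 annotated pseudogenes. Between 1 and 7 of these had a peak, with at most 290 tags, in any list, and tags that align to several copies could have been placed at either.

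EEF2 (chromosome 19, 3976054 to 3985461), which translocates the ribosome, lay under 1 peak in each list that ran 7553 to 10774 bp past its end. The peak held 1527 control tags, 2217 upon shRNA5 and 3385 upon shRNA7, and 2299 and 2824 without and with doxycycline. Its length changed little, from 17557 bp in the control list to 20795 bp upon shRNA7. The summit lay within 85 bp of the start of EEF2 in all 5 lists, although the peak also took in the start of the neighbour DAPK3.

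EEF1G (chromosome 11, 62327068 to 62341558), a subunit of the eEF1B exchange complex, held the fewest tags of the 10 in each list where it had a peak, and had none in 1 list. It held 180 tags in 3 peaks with the control hairpin and 788 tags in 5 peaks upon shRNA5. Upon shRNA7 no peak was listed, and the nearest ones were 4782 bp before and 16245 bp after the gene. Such a loss from the control to the shRNA7 list was seen at 0.957% of all genes. Without and with doxycycline EEF1G held 502 tags in 8 peaks and 471 tags in 11. In the 4 lists with peaks, a separate peak began just past the end of the EEF1G transcript, and the end itself was under none.

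EIF5A (chromosome 17, 7210318 to 7215782), the hypusine factor, lay under 1 peak in each list, with 1013, 1496 and 2367 tags with the control hairpin, shRNA5 and shRNA7. It held 793 tags without doxycycline and 945 with it. The summit lay past the end of the transcript in all 5 lists, by 296 to 883 bp, next to GPS2, whose start was under the same peak in 4 of them. RNAPII of the pair cannot be told apart in these lists.

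**Figure D3:**
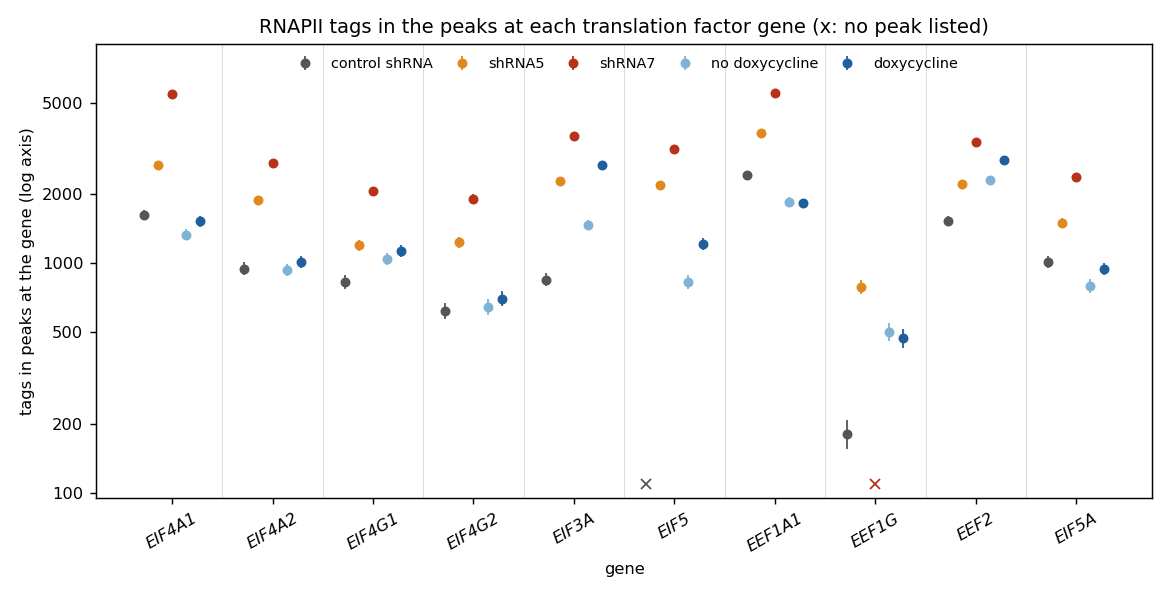
Tags in the peaks at each gene (log axis) for the 5 lists, 1 library each, with exact Poisson intervals for the count; crosses at the bottom mark genes without a listed peak. Within the hairpin arm every gene with 3 values was lowest with control shRNA and highest with shRNA7, and within the doxycycline arm the values lay close together except at EIF3A and EIF5.

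The question of the hairpin arm was how RNAPII at these genes differs when RECQL5 is depleted. Tags were higher upon shRNA5 at 9 of 9 genes with a peak in both lists, as they were at 4374 of 4423 such genes among all protein-coding genes. The folds at the 9 ran from 1.44 (EIF4G1) to 4.38 (EEF1G), with a median of 1.66. The median over all 4423 genes with a peak in both lists was 3.22. At least 2-fold more tags were found at 2 of the 9, EEF1G with 4.38 (interval 3.72 to 5.18) and EIF3A with 2.68 (2.48 to 2.91), against 78.7% of all genes. Next came EIF4G2 with 1.99 (1.80 to 2.19) and EIF4A2 with 1.98 (1.83 to 2.15), just under the limit. The fold was below the median of all genes at 8 of the 9 translation factor genes, EEF1G being the exception. The 9 genes started from a higher level, with a median of 947 tags in the control list against 116 over all 4449 genes with a peak. EEF1G, at 180 control tags, was the lowest of the 9. All genes are thus not a baseline matched in starting tags, for either hairpin, and the part of this in the folds was not tested.

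Upon shRNA7 the tags were at least 2-fold higher at 8 of 8 genes, against 95.8% of all genes. The folds ran from 2.22 at EEF2 (interval 2.09 to 2.36) to 4.20 at EIF3A (3.89 to 4.53), with a median of 2.68 against 6.62 over all 4260 genes. All 8 folds lay below the median of all genes. The large peak over EIF4A1 and its neighbours gave a fold of 3.38 (3.20 to 3.58), but with tags counted pro rata to the part of the peak within the gene it was 1.25. The shRNA5 and shRNA7 folds share the control library and are no independent measures of each other. When the median fold of all genes was set to 1, the tags summed over the genes with a peak in both lists became 0.542 times the control upon shRNA5 and 0.415 times upon shRNA7, where the deposited tags gave 1.75 and 2.75.

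**Figure D4:**
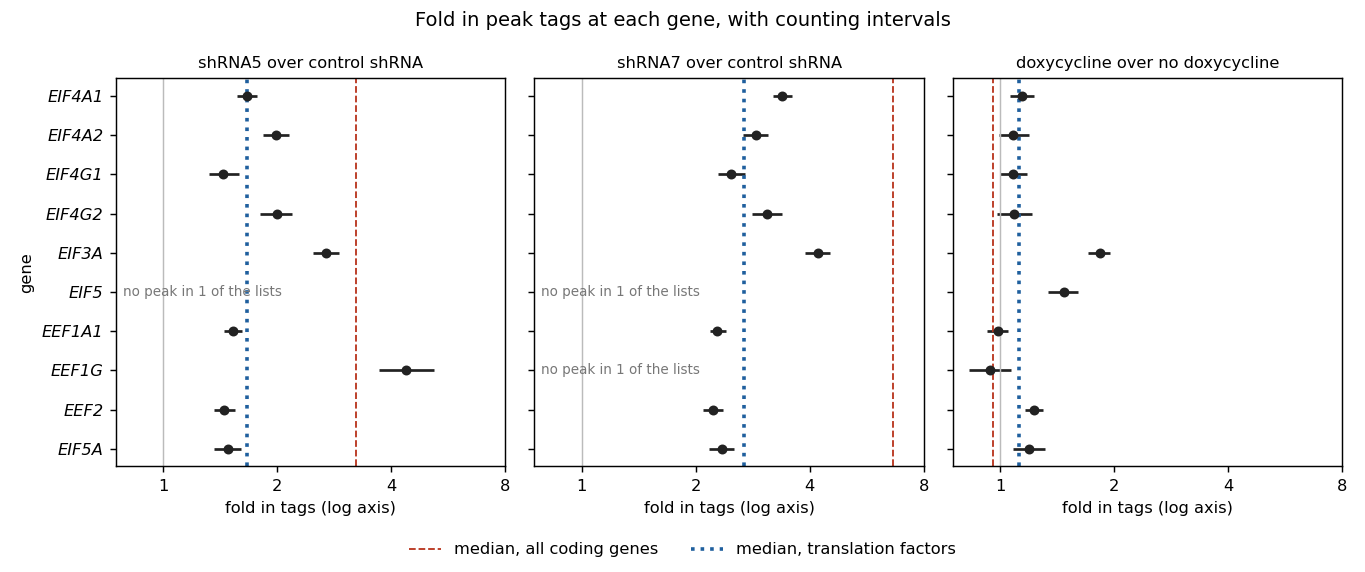
Fold in tags at each gene (log axis) between the lists of an arm, with exact conditional intervals for 2 counts, 1 library per list. The dashed line marks the median of all protein-coding genes (3.22, 6.62 and 0.957) and the dotted line that of the translation factor genes (1.66, 2.68 and 1.12).

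The change was then divided into length and density. Total peak length at the genes was a median of 1.30 times that of the control upon shRNA5 and 1.41 times upon shRNA7, against 2.60 and 4.79 over all genes. Tags per kb of peak were 1.36 and 1.78 times those of the control at the median, against 1.25 and 1.41 over all genes. At the median, the translation factor genes thus had a smaller fold in length than all genes and a somewhat larger fold in density. Upon shRNA7 EIF4A2 had the largest density fold of the 8, at 2.20 with a length fold of 1.31, and EEF2 the smallest length fold, at 1.18 with a density fold of 1.87. EEF1G and EIF3A were unlike the others, with length folds of 3.39 and 2.24 upon shRNA5. In the control list peaks already covered the whole span of EIF4A1, EIF4A2, EEF2 and EIF5A, and only 18.3% of EEF1G and 29.3% of EIF3A. The part of this earlier coverage in the folds was not tested.

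**Figure D5:**
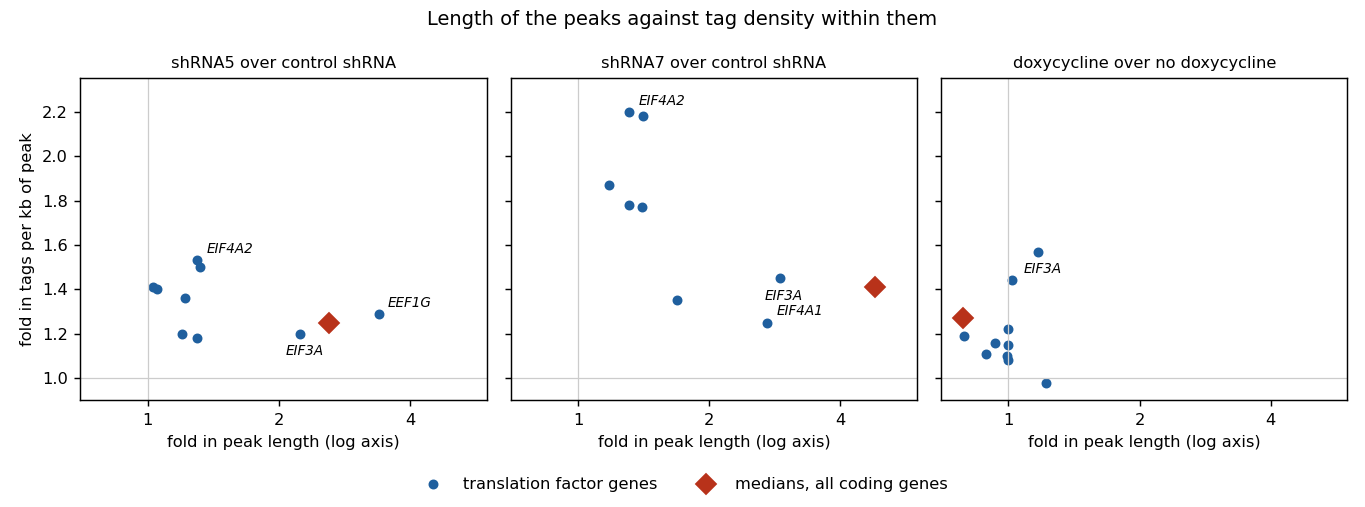
Fold in tags per kb of peak against the fold in total peak length (log axis) at each gene, for the 3 pairs of lists, with the medians of all protein-coding genes as a diamond. In the hairpin pairs most translation factor genes sat to the left of the diamond, and EEF1G upon shRNA5 was the one to its right.

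The doxycycline arm asked the same of cells that overproduce RECQL5. Tags were higher with doxycycline at 8 of 10 genes, and fewer at EEF1A1 (fold 0.985, interval 0.923 to 1.05) and EEF1G (0.938, 0.826 to 1.07), whose intervals span 1. Over all 10378 genes with a peak in both lists 53.2% had fewer tags, and 6.54% had at least 2-fold more, which none of the 10 had. The median fold of the translation factor genes was 1.12, against 0.957 over all genes. EIF3A had the largest fold, 1.83 (1.71 to 1.95), and EIF5 followed with 1.47 (1.34 to 1.60). EEF2 with 1.23 (1.16 to 1.30), EIF5A with 1.19 (1.08 to 1.31) and EIF4A1 with 1.14 (1.06 to 1.23) also had intervals above 1. At EIF5A, however, the peak was 1.22 times as long with the drug. Its fold was 0.977 in tags per kb, and also 0.977 with tags counted pro rata to the part within the gene. Counted pro rata, 7 of the 10 genes had a fold above 1. At EIF4A2, EIF4G1 and EIF4G2 the folds of 1.08, 1.08 and 1.09 were within counting error of no change. The median fold in length was 0.998, against 0.787 over all genes, and that in density 1.15, against 1.27.

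The wider machinery was read from a list of 53 cytosolic translation genes, which includes the 10. A peak was listed at 36 of the 53 with the control hairpin (22.5% of all genes), at 49 with shRNA5 (52.6%) and at 50 with shRNA7 (60.6%). It was listed at 52 both without (64.2% of all genes) and with doxycycline (53.6%). The other 43 genes had median folds of 3.52 upon shRNA5 and 6.40 upon shRNA7, close to those of all genes, and of 1.30 with doxycycline. In 14 genes of the 53 no control peak was listed but both hairpin lists had one, against 29.0% of all genes. These were EIF4G3, EIF3I, EIF2B3, EIF1B, EIF2B5, EIF3H, EEF1D, EIF4EBP2, EIF3F, EIF3M, EIF5, EIF3J, EEF2K and EIF3C. None of the 53 lacked a peak in every list.

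By class, the median fold upon shRNA5 was 2.68 for 25 initiation genes, 1.53 for 5 elongation genes and 11.4 for 3 genes of termination and recycling with a peak in both lists. Upon shRNA7 it was 4.97, 2.34 and 16.2 for 23, 5 and 3 genes. Regulators had 2.96 and 6.93 over 2 genes, and the medians over all genes were 3.22 and 6.62. The classes include the 10 genes. EEF1A1, EEF1G, EEF2 and EIF5A were among the 5 elongation genes upon shRNA5, and EEF1A1, EEF2 and EIF5A among the 5 upon shRNA7. The elongation medians thus rest largely on genes already described. EEF1G was not alone in its loss upon shRNA7, since EIF1AX and EIF2S3 also had control peaks and none in that list. Such a loss was thus seen at 3 of the 53 genes, against 0.957% of all genes. EIF1AX and EIF2S3 both lie on chromosome X, and whether their losses are separate from each other was not tested. EIF1AX, a scanning factor, held 1396 tags with the control hairpin and 1883 upon shRNA5, and EIF2S3, the GTP-binding subunit of eIF2, held 946 and 1925. For comparison, 9 genes of mitochondrial translation had a peak at 3 with the control hairpin (22.5% of all genes). They had one at 9 with shRNA5 (52.6%) and with shRNA7 (60.6%), and at 9 and 8 without (64.2%) and with doxycycline (53.6%).

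A feature that the choice of genes did not use was the snoRNAs within them. At least 1 annotated snoRNA lay in the span of 7 of the 10 genes (70.0%), against 415 of 19756 protein-coding genes (2.10%). EIF4A2 held 5, EIF4A1 and EIF3A 2 each, and EEF2, EIF4G1, EIF4G2 and EIF5 1 each. EEF1A1, EEF1G and EIF5A held none. RNAPII at the hosts cannot be divided into RNAPII that makes the snoRNA and RNAPII that makes the messenger, since both come from 1 transcript. Of the summits of the assigned peaks, 10 of 23 (43.5%) lay in introns with the control hairpin, 13 of 27 (48.1%) with shRNA5 and 3 of 15 (20.0%) with shRNA7. Without and with doxycycline the share was 29 of 50 (58.0%) and 21 of 43 (48.8%). A gene weighs in these shares by its number of peaks, and EIF3A and EEF1G had 25 and 8 of the 50 without doxycycline. Upon shRNA7 EIF4G1 and EIF4G2 had 1 peak each and EEF1G had none. The part of this in the share was not tested, and the shares were not set beside those of all peaks.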

How the data were processed

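RNAPII ChIP-seq peak lists of 5 libraries were used, each deposited for 1 RNAPII library called against IgG. The authors aligned single-end reads to hg19 (GRCh37) with Bowtie 0.12.7 and called peaks with MACS 1.4.2, and CASAVA 1.8 is named in the submitters' processing notes. The deposited tag count of each peak is not normalised to library size, which limits every fold between lists. The significance score was deposited as 10 times the −log10 of the p-value. The fold enrichment is the authors' ratio of peak height to local background, and the FDR is given by the authors in percent. No column of other samples was present (0).

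The genes and the lists were chosen with earlier results of these data known, and all 10 genes are named. Other genes are named where their start lay under a peak of the 10, or where they mark the cell line. Genes of the 53 in the wider list are named where they gained a peak in both hairpin lists or lost one upon shRNA7. MTO1 (beside EEF1A1), RFC4 (EIF4A2), CTR9 (EIF4G2), SENP3 and FXR2 (EIF4A1) and NEURL4 (EIF5A) also shared peaks with the 10, but their starts did not lie under them. SUV39H2, QRICH2 and POLGARF fall outside these rules and were named after their values were seen. Peaks on chromosomes 1 to 22 and X were assigned with GENCODE 44 lifted to GRCh37, using 1 reference transcript per gene. All tags of a peak that touched a gene were counted for it, so neighbours under 1 peak share its tags. Counts have exact Poisson and folds exact conditional binomial intervals (SciPy 1.17.1, NumPy 2.4.6, pandas 2.3.3, Python 3.11.15). Figures were drawn with matplotlib 3.10.9. A gene was called at 2-fold or more, with no test. The counting was tested on simulated peaks. Stricter peaks, other overlap rules, scaling to the median gene and another definition of the start were tried as alternatives.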

Additional observations from a re-analysis of the deposited data

Results flagged for a closer look

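EEF1G held 4.38-fold more tags upon shRNA5 than with the control hairpin, whereas no peak was listed at the gene upon shRNA7. It stands out because one hairpin list held more tags than the control list and the other held no peak. A gene without a listed peak has no tag count, so no fold or direction can be given upon shRNA7. With 1 library per hairpin the difference was not tested.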

How the results depend on the processing

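No replicate could be left out, as every group rests on 1 library. No paired analysis was possible because the groups hold 1 library each and nothing was tested. Of 88 recomputed values 70 stayed within the main value's counting interval or within 1.5 times the main count, 16 moved and 2 changed direction. For tags summed over genes with a peak in both lists, the folds were 1.75 (shRNA5), 2.75 (shRNA7) and 1.23 (doxycycline). They became 2.84 (shRNA7) with a score of at least 100, 1.82 and 2.90 (shRNA5, shRNA7) with an FDR of at most 5%, 1.61 (shRNA5) with a fold enrichment of at least 10, 2.82 (shRNA7) with summits inside the span and 1.79 (shRNA5) with at least 50% of the peak inside. Pro rata tags, a setting added once the data had been seen, gave 1.69 and 2.32, and 5 genes with at least 2-fold more tags upon shRNA7. With the median fold of all genes set to 1, the direction changed to 0.542 (shRNA5) and 0.415 (shRNA7), the doxycycline fold became 1.28, and 0 genes reached 2-fold upon shRNA5 or shRNA7. This follows from the scaling, since the summed folds lay below the median fold of all genes. Fold enrichment of at least 10 left 16 peaks and 1 gene with 2-fold more tags upon shRNA5, and summits inside the span gave 1 such gene with doxycycline. Requiring the summit within 500 bp of the start left 5 genes upon shRNA7. Where not stated, the cause was not tested. The study's methods describe similar read numbers for the libraries that were compared, but these were not used for scaling here.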
